A study of Mus musculus with 16 samples.

Results

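Blood cells and liver release a small set of abundant microRNAs (miRNAs) into serum, and these names are used as markers of serum RNA in a sample. The 6 miRNAs described here were chosen by name, with earlier results of these data known, out of 1205 human miRNAs on the array. They are the probes listed under hsa-miR-486-5p, hsa-miR-451a, hsa-miR-144-3p, hsa-miR-223-3p, hsa-miR-155-5p or hsa-miR-122-5p. All 6 were on the array, and 2 of them, miR-486-5p and miR-155-5p, passed the detection filter that left 283 human miRNAs to be tested. RNA was taken from the medium of cultured HCT116 cells, an established human colorectal carcinoma line. The groups were high-dose-rate X-irradiation with 2, 6 or 10 Gy and unirradiated cells (0 Gy), and every culture, the unirradiated ones included, was then kept for 72 h in RPMI1640 that contained 10% fetal bovine serum (FBS). There were 4 cultures per dose, described by the submitters as independent, with 1 array per culture. The labels give the organism as mouse and the series text calls the line murine and leaves out the 2 Gy dose, but HCT116 is human, the array carries human probes, and the 2 Gy arrays have labels of their own.

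A miRNA is a short RNA that guides an Argonaute protein to messenger RNAs, largely through its seed, the bases near its 5′ end, and reduces their translation and stability. Outside cells miRNAs are carried in vesicles and in protein and lipoprotein complexes, which shield them from the nucleases of serum. Many mature miRNAs have the same or nearly the same sequence in cattle and in humans, so a human probe can also bind a miRNA from bovine serum. No array of medium without cells was analysed here, and RNA from the cells and RNA from the serum in the medium cannot be told apart on these arrays.

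miR-451a and miR-144-3p come from a single primary transcript that is strongly made in developing red cells, and miR-451a is matured by Argonaute 2 in place of Dicer. miR-486-5p, encoded within the ankyrin 1 gene, is abundant in red cells and is also made in muscle. miR-223-3p is a miRNA of granulocytes, monocytes and platelets. miR-155-5p is made by activated lymphocytes and macrophages and also by many tumour cells. miR-122-5p is the predominant miRNA of hepatocytes and circulates when the liver is injured.

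The sequences below show the seeds of 4 of the 6 miRNAs, of which miR-155-5p was detected and the others were not. They are the mouse counterparts held by RefSeq for the build GRCm38.p6, matched by name, and none is printed for miR-486-5p or miR-122-5p. The human sequences were not used here. Each is written 5′ to 3′ with the seed, bases 2 to 8, in capitals, and the 4 seeds are all different.
mmu-miR-451a: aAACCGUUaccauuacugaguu
mmu-miR-144-3p: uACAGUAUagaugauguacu
mmu-miR-223-3p: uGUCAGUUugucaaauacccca
mmu-miR-155-5p: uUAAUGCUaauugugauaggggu
In the mouse genome miR-451a lies at chr11:78073186-78073207 and miR-144-3p at chr11:78073047-78073066, both on the plus strand, and their hairpins are 99 bases apart. Mouse miR-223-3p lies at chrX:96242884-96242905 and mouse miR-155-5p at chr16:84714143-84714165, both on the plus strand.

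The arrays were technically uneven. They detected 242 to 358 human miRNAs each, and the 75th percentile of the bright probes lay between 8.16 and 9.41 on the log2 scale before scaling. The hybridisation spike-in was in Agilent's range on 16 of 16 arrays, but the labelling spike-in was in range on 3 of 16. At least 1 of the 2 labelling spike-ins was undetected on 4 arrays (replicate 3 at 0 Gy, replicate 1 at 2 Gy, and replicates 1 and 4 at 6 Gy), and both were undetected on replicate 3 at 0 Gy and replicate 4 at 6 Gy, where the software lists a floor of -2.32 (log2). Slide 1 held all arrays at 0 and 2 Gy and slide 2 all arrays at 6 and 10 Gy, so for 6 or 10 Gy against 0 Gy dose and slide cannot be told apart. No pair of arrays held identical values, and their correlations over the tested miRNAs ran from 0.820 to 0.998.

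Detection separated the red-cell names from each other, and likewise the white-cell names, while the liver miRNA lay at the edge of the rule. A probe was called detected where over 0.5 of its spots were flagged well above background, and each miRNA had 2 probes of 20 spots. miR-486-5p and miR-155-5p were detected on 16 of 16 arrays, miR-122-5p on 4, and miR-223-3p, miR-144-3p and miR-451a on 0. Of the 3 red-cell miRNAs only miR-486-5p was detected, and of the pair of white-cell miRNAs only miR-155-5p. In the unscaled processed signal the negative-control spots averaged 1.89 to 3.71 on an array, and the dimmest detected probe of an array gave 14.5 to 19.1.

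**Figure D1:**
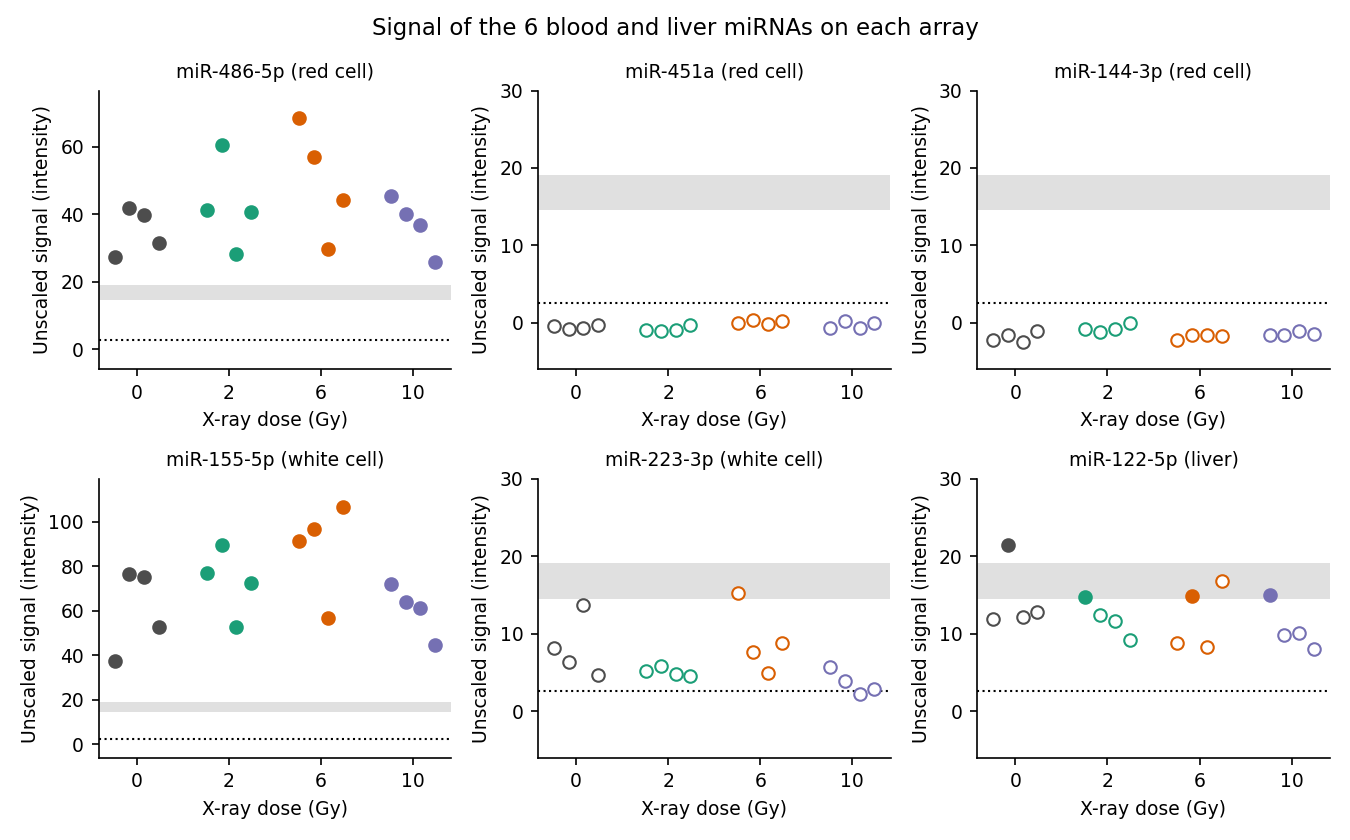
Unscaled processed signal (intensity, background subtracted) of each miRNA, as the mean of its probes, against dose in Gy as 4 categories, with 1 point per array. Filled points were detected, open points were not, the grey band spans the lowest signal of a detected probe over the arrays (14.5 to 19.1) and the dotted line is the median of the negative-control means (2.61). miR-486-5p and miR-155-5p lie above the band on all arrays, while miR-451a and miR-144-3p lie below the dotted line on all arrays.

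miR-451a, the most red-cell-restricted of the 3, gave no signal above the negative controls. Its signal averaged -0.53 ± 0.24 in unirradiated cultures, -0.81 ± 0.34 after 2 Gy, 0.07 ± 0.25 after 6 Gy and -0.27 ± 0.45 after 10 Gy (SD over n = 4 cultures each). None of its 611 spots was well above background. The highest array, replicate 2 at 6 Gy, reached 0.344, below the lowest negative-control mean of any array.

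miR-144-3p, its partner on the same transcript, was also at background. Its signal averaged -1.83 ± 0.63 in unirradiated cultures, -0.71 ± 0.45 after 2 Gy, -1.77 ± 0.29 after 6 Gy and -1.40 ± 0.29 after 10 Gy (SD over n = 4 cultures each). All 16 arrays gave a negative value, the highest being -0.0671, and 0 of 622 spots were well above background. Both probes are thus not well above background at any dose, which bounds their level from above and gives no fold change.

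miR-223-3p was dim and passed the detection rule on 0 arrays. Its signal was 8.13, 6.34, 13.8 and 4.75 in replicates 1 to 4 at 0 Gy, and 5.23, 5.80, 4.86 and 4.54 at 2 Gy. At 6 Gy it was 15.3, 7.60, 4.98 and 8.88, and at 10 Gy it was 5.68, 3.86, 2.21 and 2.88. A single array at 0 Gy and a single array at 6 Gy stood above the rest, and both are arrays on which a labelling spike-in was undetected. The other 2 arrays with an undetected spike-in, replicate 1 at 2 Gy (5.23) and replicate 4 at 6 Gy (8.88), did not stand apart, though 8.88 was the next highest signal. All 11 of its 609 spots that were well above background lay on the 2 arrays that stood above the rest. These were replicate 3 at 0 Gy with 4 such spots and replicate 1 at 6 Gy with 7, and Agilent's own detection flag for the miRNA was set on the same 2.

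miR-122-5p lay at the edge of detection, with 1 array detected at each dose. Its signal was 11.9, 21.4, 12.1 and 12.9 in replicates 1 to 4 at 0 Gy, and 14.7, 12.4, 11.6 and 9.20 at 2 Gy. At 6 Gy it was 8.79, 14.9, 8.30 and 16.8, and at 10 Gy it was 15.1, 9.85, 10.2 and 8.10. The groups overlapped widely, and replicate 2 at 0 Gy alone exceeded the dimmest detected probe of every array. The share of its spots well above background was 22.6% in unirradiated cultures, 15.6% after 2 Gy, 15.3% after 6 Gy and 9.59% after 10 Gy, or 97 of 612 spots in all. These shares were not tested, because spots of an array are not replicates and 1 array supplied most of the spots at 0 Gy. Agilent's flag, a looser rule, called miR-122-5p on 13 of 16 arrays (4, 4, 2 and 3 at 0, 2, 6 and 10 Gy).

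The 2 probes of miR-122-5p gave unequal signals. Probe A_25_P00012153 was the brighter on 16 of 16 arrays, by a ratio of 1.15 to 1.98 with a median of 1.53, and it supplied 90 of the 97 spots well above background. It was detected on 4 arrays and the other probe, A_25_P00012154, on 0. The probes of the brighter miRNAs lay closer together, with ratios of 0.910 to 1.09 for miR-486-5p and 1.00 to 1.14 for miR-155-5p.

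**Figure D2:**
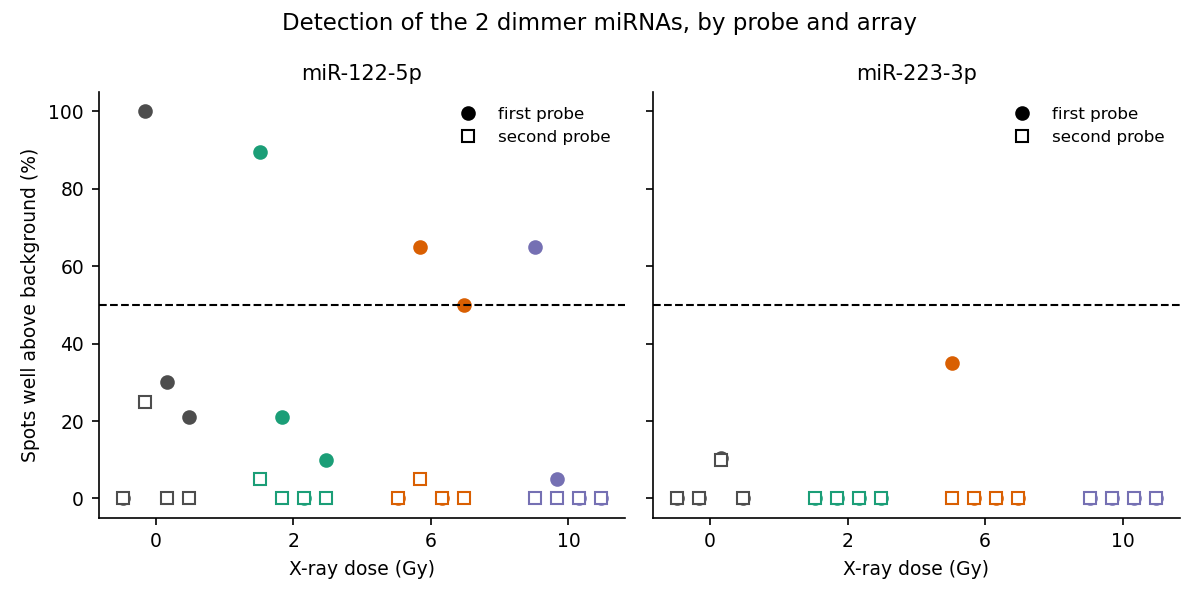
Share of spots well above background (%) for each probe of miR-122-5p and miR-223-3p against dose in Gy as 4 categories, with 1 point per probe and array, filled circles for the first probe and open squares for the second, which cover the circles where both are at 0. The dashed line is the detection rule of over 50%, which the first probe of miR-122-5p passes on 1 array at each dose and miR-223-3p on none.

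miR-486-5p was detected on every array at a low signal. Before scaling it gave 27.2, 41.8, 39.6 and 31.5 in replicates 1 to 4 at 0 Gy, and 41.3, 60.5, 28.3 and 40.8 at 2 Gy. At 6 Gy it gave 68.4, 56.8, 29.6 and 44.1, and at 10 Gy 45.5, 40.0, 36.7 and 25.7. All arrays stood above the dimmest detected probe, and the doses overlapped before scaling. Of its 602 spots, 601 were well above background, and the spots of a probe varied by a median of 10.1% (coefficient of variation) within an array for the first probe and 10.3% for the second.

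miR-155-5p was detected just as regularly. Before scaling it gave 37.6, 76.6, 75.3 and 52.6 in replicates 1 to 4 at 0 Gy, and 76.8, 89.3, 52.7 and 72.5 at 2 Gy. At 6 Gy it gave 91.4, 96.6, 56.6 and 106.3, and at 10 Gy 71.8, 63.7, 61.3 and 44.7. All 620 of its spots were well above background, and the 10 Gy arrays lay within the span of the 0 Gy arrays.

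The other arm of each precursor, where the array carried it, was not detected. miR-486-3p, miR-144-5p, miR-223-5p, miR-155-3p and miR-122-3p had no spot well above background on any array. Their mean signals ran from -3.90 for miR-486-3p to 0.756 for miR-144-5p.

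The members were set beside longer lists of blood, liver and colon miRNAs. On the red-cell list, 3 of 8 names were detected on any array: miR-486-5p on 16, miR-185-5p on 5 (3, 1, 0 and 1 at 0, 2, 6 and 10 Gy) and miR-16-5p on 4 (3, 0, 0 and 1). On the white-cell and platelet list, 2 of 10 were detected, miR-155-5p on 16 arrays and miR-342-3p, a miRNA of lymphocytes, on 12 (4, 1, 3 and 4). The defining lymphoid and myeloid miRNAs miR-142-3p, miR-142-5p, miR-150-5p and miR-146a-5p, and the endothelial and platelet miRNA miR-126-3p, were detected on 0 arrays. On the liver list, 3 of 6 were detected: miR-122-5p on 4 arrays, miR-148a-3p on 5 and miR-885-5p on 1.

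On the colon list, 7 of 10 names were detected on some array. The epithelial miR-200 family members miR-200c-3p and miR-141-3p were detected on 15 of 16 arrays each, miR-21-5p and miR-31-5p, both often raised in colorectal carcinoma, on 11 each, and miR-200b-3p, miR-429 and miR-200a-3p on 8, 6 and 4. miR-192-5p, miR-194-5p and miR-215-5p, of differentiated colon epithelium, were detected on 0, and the first and second of these are on the liver list too.

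After scaling, miR-155-5p was higher at each X-ray dose than at 0 Gy, and the difference passed the test at 6 Gy. Levels here are log2 of the signal divided by the 75th percentile of the 518 probes detected on all arrays, so they are relative to the other bright miRNAs of the same array. At 0 Gy the levels in replicates 1 to 4 were -3.21, -2.94, -2.84 and -2.94, and at 2 Gy they were -2.69, -2.93, -2.83 and -2.73. At 6 Gy they were -2.88, -2.63, -2.62 and -2.58, and at 10 Gy -2.72, -2.72, -2.73 and -2.68. All 4 arrays at 10 Gy lay above all 4 at 0 Gy, while at 2 and at 6 Gy 3 of 4 arrays did so. The means were -2.98 ± 0.16 in unirradiated cultures, -2.79 ± 0.11 after 2 Gy, -2.68 ± 0.14 after 6 Gy and -2.71 ± 0.02 after 10 Gy (SD over n = 4 cultures each).

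At 6 Gy the level of miR-155-5p averaged -2.68, against -2.98 at 0 Gy, a rise of 0.31 ± 0.09 (log2, SE), or 1.24-fold with a 95% interval of 1.07 to 1.42 (adjusted p = 0.0407 by limma with Benjamini-Hochberg adjustment over 283 miRNAs). In that comparison 55 of 283 miRNAs passed, a share of 19.4%, with 17 higher (6.01%) and 38 lower, the arrays at 6 Gy lay wholly above those at 0 Gy for 16 miRNAs (5.65%), and the median difference over all tested miRNAs was 0.12. The call was narrow. It was lost in 13 of 16 fits that left out a single array (adjusted p up to 0.123), and kept without replicate 3 at 0 Gy, replicate 2 at 2 Gy or replicate 4 at 10 Gy (down to 0.00993). An exact two-sided permutation test of the 4 arrays against 4 gave p = 0.0571 (adjusted 0.114 over 8 such tests), where the smallest p possible is 0.0286. The limma p-value sets the difference against the spread between cultures within a dose, estimated over all 16 arrays. In both tests the 6 and 0 Gy cultures lay on different slides, so dose and slide cannot be told apart.

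At 2 Gy miR-155-5p averaged -2.79, against -2.98 at 0 Gy, a difference of 0.19 ± 0.09 with a 95% interval of -0.01 to 0.39 (adjusted p = 0.163, limma). In this comparison, made within slide 1, 36 of 283 miRNAs passed (12.7%, 17 of them higher), and arrays of 20 miRNAs (7.07%) lay wholly above those at 0 Gy. With the 8 arrays of slide 1 fitted alone by limma, 0 miRNAs passed and 69 had an unadjusted p under 0.05, with adjusted p = 0.289 for miR-155-5p and 0.326 for miR-486-5p. At 10 Gy miR-155-5p averaged -2.71, against -2.98 at 0 Gy, a difference of 0.27 ± 0.09 with an interval of 0.07 to 0.48 (adjusted p = 0.118, limma). There 1 of 283 miRNAs passed (0.353%) and 63 had an unadjusted p under 0.05. Without replicate 3 at 0 Gy the difference at 10 Gy was 0.32 and passed (adjusted p = 0.0401, limma), in a fit where 43 of 283 miRNAs passed.

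miR-486-5p showed positive differences of similar size, none of which passed. At 0 Gy the levels in replicates 1 to 4 were -3.67, -3.81, -3.77 and -3.68, and at 2 Gy they were -3.59, -3.49, -3.73 and -3.55. At 6 Gy they were -3.30, -3.39, -3.56 and -3.85, and at 10 Gy -3.38, -3.39, -3.47 and -3.48. All 4 arrays at 10 Gy lay above all 4 at 0 Gy, 3 of 4 did so at 2 Gy and 3 of 4 at 6 Gy, where replicate 4 was the lowest array of the study. The means were -3.74 ± 0.07 in unirradiated cultures, -3.59 ± 0.10 after 2 Gy, -3.53 ± 0.24 after 6 Gy and -3.43 ± 0.05 after 10 Gy (SD over n = 4 cultures each).

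The difference of miR-486-5p from 0 Gy was 0.15 ± 0.11 at 2 Gy (95% interval -0.08 to 0.37, adjusted p = 0.308), 0.21 ± 0.11 at 6 Gy (-0.02 to 0.44, adjusted p = 0.142) and 0.31 ± 0.11 at 10 Gy (0.08 to 0.53, adjusted p = 0.117), all by limma. For both miRNAs the 10 and 0 Gy arrays did not overlap, which gave the smallest exact permutation p of 0.0286 (two-sided, adjusted 0.114). Arrays at 10 Gy lay wholly above those at 0 Gy for 28 of 283 miRNAs, a share of 9.89%.

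**Figure D3:**
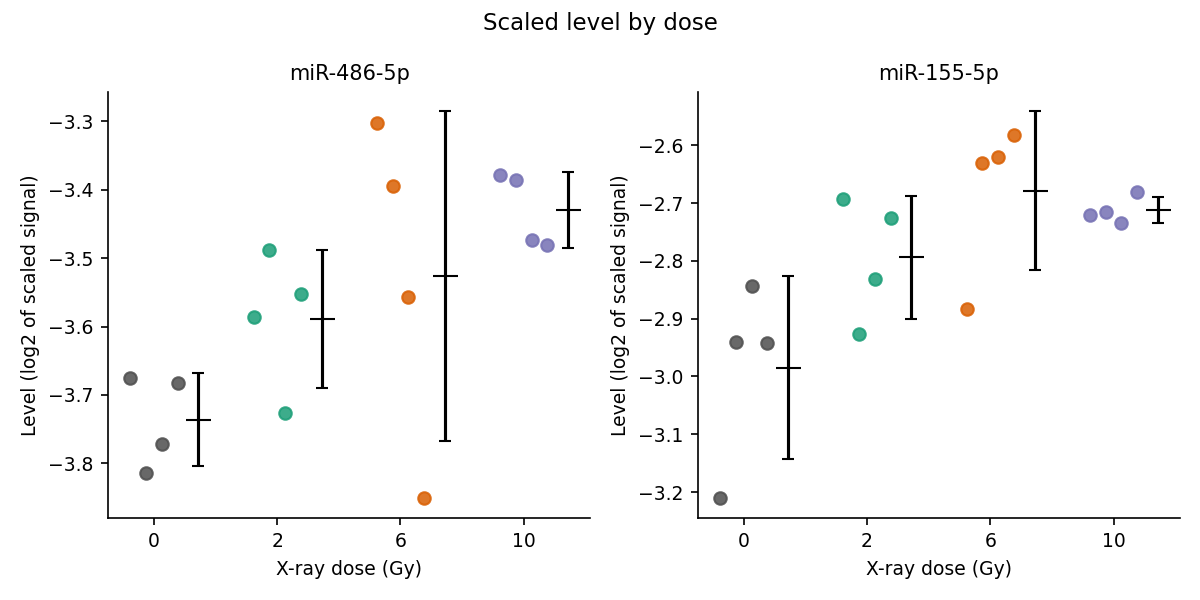
Level of miR-486-5p and miR-155-5p (log2 of scaled signal) against dose in Gy as 4 categories, with 1 point per array and the mean with its SD (n = 4) as a black bar beside the points. For both miRNAs the 10 Gy arrays all lie above the 0 Gy arrays, and replicate 4 at 6 Gy, the last orange point, is the lowest for miR-486-5p (-3.85) and the highest for miR-155-5p (-2.58).

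Between the higher doses neither miRNA passed the test. miR-155-5p averaged -2.71 at 10 Gy and -2.68 at 6 Gy, a difference of -0.03 with a 95% interval of -0.24 to 0.17 (adjusted p = 0.826, limma). miR-486-5p averaged -3.43 at 10 Gy and -3.53 at 6 Gy, a difference of 0.10 with an interval of -0.13 to 0.32 (adjusted p = 0.529, limma). Both lie on slide 2, where limma called 0 of 283 miRNAs (0%) and 42 had an unadjusted p under 0.05. With the 8 arrays of that slide fitted alone, the adjusted p was 0.805 for miR-155-5p and 0.602 for miR-486-5p. Same-numbered arrays deviated together on this slide, but replicates 1 and 3 at 10 Gy correlated better with a differently numbered 6 Gy array. Replicates 1 and 2 lay in row 1 of the slide and replicates 3 and 4 in row 2, so number and position go together. With the replicate number as a block in a limma fit of its 8 arrays, a setting chosen after seeing the data, 55 miRNAs passed, 36 higher and 19 lower. Neither miR-155-5p (adjusted p = 0.785) nor miR-486-5p (adjusted p = 0.489) was among them.

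Fitted as a change per Gy, the slope of miR-486-5p was 0.028 ± 0.010 (log2 per Gy, SE, adjusted p = 0.280) and that of miR-155-5p 0.025 ± 0.010 (adjusted p = 0.295), by limma on 16 arrays. Neither passed, and 0 of 283 miRNAs did (0%), with 36 at an unadjusted p under 0.05. The 0 and 2 Gy arrays lay on slide 1 and the 6 and 10 Gy arrays on slide 2, so the slope also holds any difference between slides. Both miRNAs were among the steadier ones. The residual SD was 0.138 for miR-486-5p and 0.118 for miR-155-5p (log2), at the 12th and 8.13th percentile of the tested miRNAs, whose median was 0.231.

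The size of these differences turned on the scaling. With no scaling between arrays, the 10 Gy differences were 0.03 for miR-155-5p (adjusted p = 0.971, limma) and 0.07 for miR-486-5p (adjusted p = 0.940), against 0.27 and 0.31 as reported, and at 2 and 6 Gy they were 0.30 and 0.56 for miR-155-5p and 0.26 and 0.46 for miR-486-5p, none of which passed. With the 75th percentile over all probes, most of which are not detected, miR-155-5p was 0.58, 0.69 and 0.48 higher at 2, 6 and 10 Gy (adjusted p = 0.0110, 0.00789 and 0.0643, limma), and miR-486-5p 0.54, 0.59 and 0.51 higher (adjusted p = 0.00853, 0.00789 and 0.0416). That scaling moved the median of all miRNAs by 0.37, 0.36 and 0.20. With quantile normalization, which moved the median by 0.18, 0.10 and 0.10, miR-486-5p was 0.44, 0.47 and 0.48 higher (adjusted p = 0.0127, 0.0141 and 0.0223). With normexp background correction, run with an offset of 50 added to each signal, miR-486-5p differed by 0.00, -0.02 and 0.22 and miR-155-5p by 0.04, 0.08 and 0.21. None of these passed (adjusted p from 0.466 to 0.999, limma). The unscaled signals were 25.7 to 68.4 for miR-486-5p and 37.6 to 106 for miR-155-5p, so an offset of that size shrinks their log2 differences before scaling. Normexp without the offset was not run.

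The split of all calls moved as well. At 2 Gy 111 of 129 calls were higher when all probes set the scale, 55 of 71 after quantile normalization, and 17 of 36 as reported. At 6 Gy the shares were 148 of 177, 92 of 127, and 17 of 55 as reported.

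**Figure D4:**
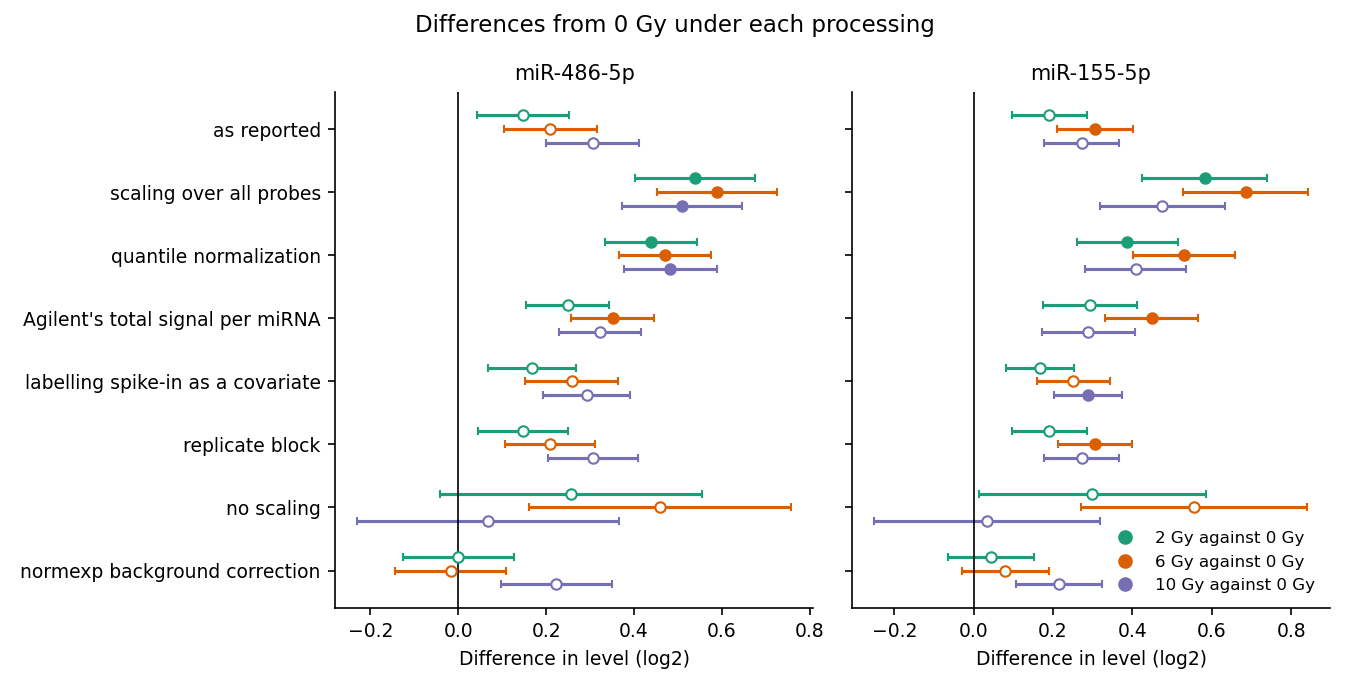
Difference in level from 0 Gy (log2) of miR-486-5p and miR-155-5p at 2, 6 and 10 Gy under each processing, as points with their SE from limma, filled where the adjusted p was under 0.05. As reported, the 6 Gy point of miR-155-5p (0.31) is the single filled one, and with normexp background correction (offset of 50) all points are open.

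Labelling was set beside these levels, array by array. The labelling spike-in averaged 6.35 ± 5.83 in unirradiated cultures, 4.82 ± 2.68 after 2 Gy, 2.70 ± 3.86 after 6 Gy and 7.38 ± 1.26 after 10 Gy (log2, SD over n = 4 arrays each). Its largest difference was 10 Gy against 6 Gy, where all 10 Gy arrays (6.06 to 9.02) lay above all 6 Gy arrays (-2.32 to 5.95). The exact permutation p of 0.0286 is the smallest that 4 arrays against 4 can give (adjusted 0.114). A single separated pair could therefore not pass after adjustment, and the adjusted value does not decide whether labelling differed between these doses. Over 16 arrays the level of miR-155-5p correlated negatively with the spike-in by rank, without passing after adjustment (rho = -0.55, permutation p = 0.0299, adjusted 0.135 over 9 relations) and with a smaller coefficient by value (r = -0.42, p = 0.108, adjusted 0.243). After removal of the 2 most extreme arrays by spike-in, r was -0.45. Within slide 1 r was -0.66 (exact permutation p = 0.0430, adjusted 0.258 over 18 within-slide tests), and within slide 2 it was -0.13 (exact permutation p = 0.805).

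For the level of miR-486-5p no relation passed, with r = 0.24 (permutation p = 0.365, adjusted 0.604) and rho = 0.10 (p = 0.703, adjusted 0.966), and r turned to -0.36 without the 2 farthest arrays. Within slides r was 0.02 (exact permutation p = 0.965) and 0.62 (exact permutation p = 0.218). With the spike-in as a covariate the difference of miR-155-5p at 6 Gy was 0.25 and no longer passed (adjusted p = 0.0882, limma), while that at 10 Gy was 0.29 and passed (adjusted p = 0.0355). The covariate fit called 59 of 283 miRNAs at 10 Gy, against 1 as reported. With the 4 arrays lacking a labelling spike-in left out, the difference of miR-155-5p at 6 Gy was 0.41 and passed (adjusted p = 0.0369, limma). Replicates 1 and 4 at 6 Gy and replicate 3 at 0 Gy were among those left out, so the 6 Gy mean rests on replicates 2 and 3 alone. In that fit the differences at 10 Gy were 0.32 for miR-155-5p (adjusted p = 0.0364) and 0.29 for miR-486-5p (adjusted p = 0.0373), and both passed. The same fit, chosen after seeing the data, called 71 of 283 miRNAs at 6 Gy and 54 at 10 Gy, against 55 and 1 as reported. With the unscaled brightness of the array the scaled levels of both had coefficients near 0, r = 0.03 for miR-155-5p (permutation p = 0.905, adjusted 0.990) and 0.00 for miR-486-5p (permutation p = 0.990, adjusted 0.990).

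**Figure D5:**
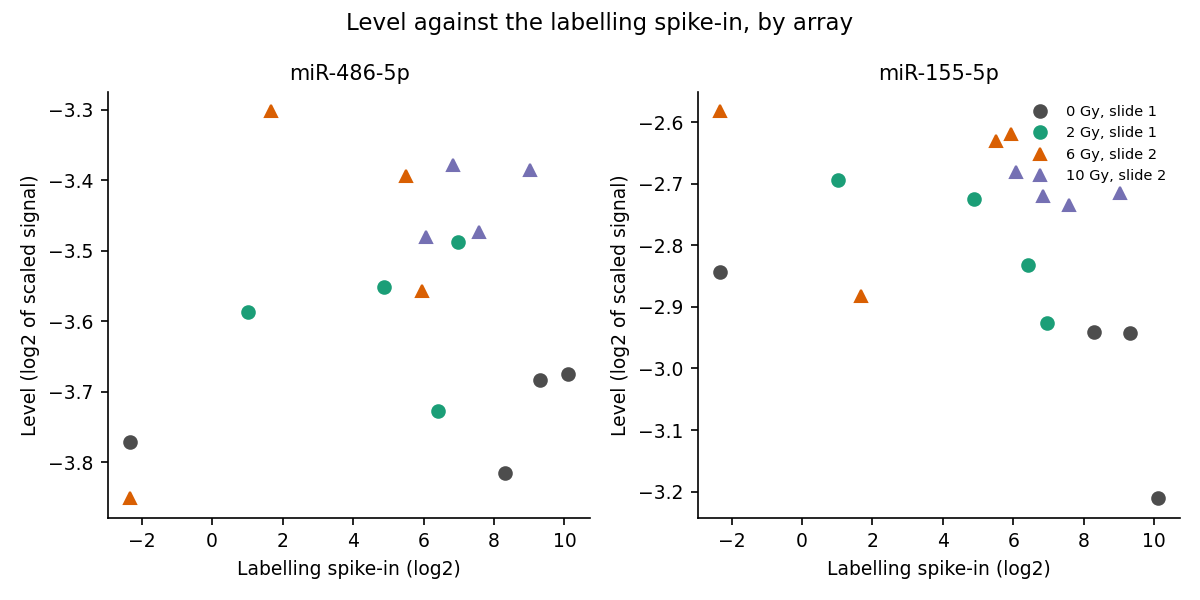
Level of miR-486-5p and miR-155-5p (log2 of scaled signal) against the labelling spike-in of the same array (log2, with both spike-ins undetected at -2.32), 1 point per array, circles for slide 1 and triangles for slide 2. The array at the lower left for miR-486-5p, replicate 4 at 6 Gy, lies at the upper left for miR-155-5p.

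The levels of the red-cell miRNA miR-486-5p and the white-cell miRNA miR-155-5p showed no correlation across arrays that passed. The coefficient was r = 0.23 over 16 arrays (permutation p = 0.403, adjusted 0.604) and rho = 0.17 (p = 0.526, adjusted 0.948), and with r = 0.09 without the 2 farthest arrays. Within slide 1 r was 0.24 (exact permutation p = 0.581) and within slide 2 -0.73 (exact permutation p = 0.00640, adjusted 0.0920), so the pooled value did not hold within both slides. The unscaled signal of the dim miR-223-3p had a positive coefficient with the brightness of the array (r = 0.62, permutation p = 0.0109, adjusted 0.0983, rho = 0.61), with a larger value within slide 2 (r = 0.83, exact permutation p = 0.0102, adjusted 0.0920) than within slide 1 (r = 0.15, exact permutation p = 0.736), and none of these passed after adjustment. With the labelling spike-in its coefficient was negative and also did not pass (r = -0.56, permutation p = 0.0246, adjusted 0.111, rho = -0.39). That r was -0.32 without the 2 farthest arrays, -0.48 within slide 1 and -0.70 within slide 2 (exact permutation p = 0.294 and 0.0630).

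The miRNAs whose levels followed each member most closely were named by Pearson's r over the 16 arrays, out of 282, as a description. For miR-155-5p they were miR-134-5p (r = 0.92), miR-1207-5p (0.92), miR-572 (0.89), miR-601 (0.89) and miR-4253 (0.89). For miR-486-5p they were miR-423-5p (r = 0.71), miR-1229-3p (0.69), miR-769-3p (0.65), miR-3678-3p (0.65) and miR-1469 (0.60). No miRNA of the red-cell, white-cell, liver or colon lists was among either set, and all points of a correlation share the array's scaling. Few could have been, because only tested miRNAs were compared. The lists held 1, 2, 0 and 4 tested names in that order, with miR-486-5p and miR-155-5p counted among them.

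Beside the rise of miR-155-5p at 6 Gy, the other tested white-cell miRNA did not pass. miR-342-3p differed from 0 Gy by -0.86 at 2 Gy, -0.75 at 6 Gy and -0.14 at 10 Gy (adjusted p = 0.122, 0.142 and 0.846, limma). This miRNA was detected on 4, 1, 3 and 4 arrays at 0, 2, 6 and 10 Gy. Its differences at 2 and 6 Gy thus rest in part on arrays where it was not detected. The summed scaled signal of the white-cell and platelet list ran from 0.188 to 0.249 at 6 Gy, against 0.176 to 0.262 at 0 Gy, and that of the red-cell list from 0.0665 to 0.118 at 6 Gy, against 0.0735 to 0.214 at 0 Gy. Such sums, taken without the floor, include the names detected on no array. These were 8 of 10 on the white-cell and platelet list, 5 of 8 on the red-cell list and 3 of 6 on the liver list. At 10 Gy the white-cell list ran from 0.208 to 0.253 and the red-cell list from 0.0831 to 0.140, so the ranges overlapped those at 0 Gy. The liver list ran from 0.0321 to 0.0578 at 10 Gy, against 0.0382 to 0.135 at 0 Gy. Of the 4 tested colon miRNAs, miR-21-5p was lower than at 0 Gy at 2 Gy (-2.79, adjusted p = 0.0225) and at 6 Gy (-2.72, adjusted p = 0.0304, limma). It was detected on 4, 1, 2 and 4 arrays at 0, 2, 6 and 10 Gy, and so passed the filter through 0 and 10 Gy alone. The sizes of these differences thus rest in part on arrays where it was not detected. In these comparisons 19 and 38 of 283 miRNAs were called lower. The other tested colon miRNAs, miR-200c-3p, miR-141-3p and miR-31-5p, were also lower than at 0 Gy at each dose, without passing. At 6 Gy their differences were -2.50, -2.07 and -1.69 (adjusted p = 0.0514, 0.0570 and 0.0603, limma), with detection on 3, 3 and 2 arrays. The part of miR-21-5p in the levels of the blood miRNAs was not tested.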

How the data were processed

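The authors deposited the scanner output of 16 single-colour Agilent miRNA arrays. Per the file headers, Agilent Feature Extraction 11.5.1.1 gave a processed signal, an intensity that is background-subtracted but not scaled between arrays. Per the labels' protocols, ISOGEN was used for extraction and 100 ng of RNA was labelled with Cy3.

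Control and outlier spots were left out, and spots of a probe averaged. Signals were divided by the array's 75th percentile over the 518 probes detected on all 16 arrays, set to a floor of 0.0412 (log2 of -4.60) and logged. A miRNA was tested if a probe was detected on all 4 arrays of a dose, and its level was the mean over passing probes: 592 probes and 283 miRNAs, with 4.20% of values at the floor. limma 3.58.1 (R 4.3.3, data.table version 1.17.8) fitted all 16 arrays with a mean per dose, adjusted by Benjamini-Hochberg at 0.05. The fit was tested on simulated data. Permutation tests (scipy version 1.17.1, Python version 3.11.15) were two-sided, drawing 100000 resamples over the whole set and enumerating the 40320 orders within a slide. Plots used matplotlib, version 3.10.9.

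The members and the lists were chosen with earlier results of these data known. Named were the 6 members, their other arms, detected names of the 4 lists and the 5 most similar miRNAs. Labels number the cultures 1 to 4 at each dose. Same-numbered arrays deviated together in 4 of 4 pairs for 10 against 6 Gy (r = 0.23 to 0.72), a pairing taken from the data alone, but in 2, 1 and 1 of 4 for 2, 6 and 10 Gy against 0 Gy. The number of arrays limits precision.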

Additional observations from a re-analysis of the deposited data

Results flagged for a closer look

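In 24 groups of 4 arrays, 3 held an array that stood apart from the others by Dixon's test at its 95% level, where chance gives about 1 in 20. The level of miR-155-5p at 6 Gy was -2.88 in replicate 1, against -2.63 to -2.58 in the other cultures at that dose. Without that array the difference of miR-155-5p at 6 Gy was 0.37 (adjusted p = 0.0581, limma). The unscaled signal of miR-122-5p at 0 Gy was 21.4 in replicate 2, against 11.9 to 12.9 in the others. The labelling spike-in at 0 Gy was -2.32 (log2) in replicate 3, the software's value for undetected, against 8.30 to 10.1 in the others.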

How the results depend on the processing

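The positive difference of miR-155-5p from 0 Gy kept its direction at 2, 6 and 10 Gy under every alternative run, and that of miR-486-5p under every one except normexp at 6 Gy (-0.017), but without scaling the 10 Gy differences shrank to 0.034 and 0.068, against 0.27 and 0.31. The call of miR-155-5p at 6 Gy (0.31) was lost with normexp and its offset of 50 (0.080), without scaling (0.56) and with the labelling spike-in in the model (0.25). It was also lost at the same 0.31 with no detection filter and by the exact permutation test (p = 0.0571, adjusted 0.114). That test cannot give a p under 0.0286 before adjustment over 8 tests, so it had little room to keep the call. The cause of these losses was not tested. Differences that newly passed were, with scaling over all probes, miR-155-5p at 2 Gy (0.58) and miR-486-5p at 2, 6 and 10 Gy (0.54, 0.59 and 0.51), and with quantile normalization miR-155-5p at 2 Gy (0.39) and miR-486-5p (0.44, 0.47 and 0.48). Others were miR-486-5p at 6 Gy with Agilent's total signal (0.35), miR-155-5p at 10 Gy with the spike-in covariate (0.29), both at 10 Gy on arrays with both labelling spike-ins detected (0.32 and 0.29), and miR-155-5p at 2 and 10 Gy without replicate 3 at 0 Gy and replicate 2 at 2 Gy (0.28 and 0.32). The last 2 settings, and the block on slide 2, were chosen after seeing the data. For 10 against 6 Gy the sign turned for miR-155-5p with normexp (0.13) and the spike-in covariate (0.036), and for miR-486-5p with scaling over all probes (-0.079), no scaling (-0.39), Agilent's total (-0.029) and without replicate 4 at 6 Gy (-0.012). Leaving out each array in turn gave ranges of 0.12 to 0.24, 0.23 to 0.37 and 0.20 to 0.32 for miR-155-5p and 0.11 to 0.19, 0.13 to 0.32 and 0.28 to 0.33 for miR-486-5p at 2, 6 and 10 Gy, -0.10 to -0.00175 and -0.012 to 0.17 for 10 against 6 Gy, and 0.018 to 0.027 and 0.025 to 0.030 per Gy.

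Counts of calls were less stable. At 2, 6 and 10 Gy (36, 55 and 1) they were 19, 34 and 0 with normexp, 129, 177 and 22 with scaling over all probes, 0, 0 and 0 without scaling, 71, 127 and 27 with quantile normalization, 74, 29 and 59 with the covariate, 152, 166 and 70 without the 2 arrays, and 0, 0 and 3 with no detection filter. Agilent's total gave 88 at 6 Gy and 0 at 10 Gy, detection on all arrays 35 and 7, arrays with both spike-ins 116 at 2 Gy and 54 at 10 Gy, and slide 1 alone 0 at 2 Gy. For 10 against 6 Gy, with 0 calls, the covariate and the unfiltered fit gave 1 each, the covariate gave 1 per Gy, and the replicate block on slide 2 gave 55. Without the filter most variances were at 0, and limma warned that the fit is unreliable. Leaving out 1 array gave 0 to 121, 0 to 143 and 0 to 43 calls, and 0 for the other comparisons. As a block over all 16 arrays, the replicate number gave 68 calls at 2 Gy and 7 at 10 Gy and changed no call of either miRNA (miR-155-5p at 6 Gy 0.31, adjusted p = 0.0381); same-numbered arrays were not paired against 0 Gy. Detection of miR-122-5p on 1 array per dose became 4, 4, 2 and 3 with Agilent's flag and 3, 3, 2 and 2 with any spot above background. Signals near background limit what can be said of miR-122-5p and miR-223-3p.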
